A study of Mus musculus with 6 samples.

Results

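The neurexin, neuroligin and LRRTM genes measured here were 9 of the 52230 mouse genes to which the transcripts of these libraries were summed. They comprised 2 neurexin genes (*Nrxn2* and *Nrxn3*), 3 neuroligin genes (*Nlgn1*, *Nlgn2* and *Nlgn3*) and 4 LRRTM genes (*Lrrtm1*, *Lrrtm2*, *Lrrtm3* and *Lrrtm4*), taken by name. All 9 passed the filter on low counts and were among the 16745 genes tested.

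Neurexins are adhesion proteins of the presynaptic membrane. Each gene makes a long alpha form and a short beta form from separate promoters, and its transcripts are spliced at several sites. Neuroligins and LRRTMs sit in the postsynaptic membrane and bind neurexins across the cleft, which helps to organise the synapse. NLGN1 is known at excitatory synapses, NLGN2 at inhibitory ones, NLGN3 at both, and the LRRTMs at excitatory synapses.

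Poly(A) RNA was sequenced from the hippocampus of newborn (P0) mice in 6 libraries, each pooled from at least 2 pups. The 3 *Mov10* Deletion libraries came from mice made by crossing a conditional line with a line heterozygous for a germline *Mov10* mutation. In the conditional line *Emx1*-Cre recombines LoxP sites around exons 6 and 7 of *Mov10*. The study describes the loss as lying in excitatory neurons of neocortex and hippocampus. The germline mutation, by contrast, is not limited to the cells that the Cre reaches. Which other cells of the hippocampus the Cre reaches was not tested here. The 3 WT libraries came from C57BL/6 mice. MOV10 is an RNA helicase that associates with the microRNA effector AGO2 and with FMRP, and the comparison asked which hippocampal RNAs differ when it is reduced. The labels tie no library to a litter, and p-values measure the spread between these pools.

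Library totals were between 71400300 and 86207971 estimated counts. *Mov10* was at 2.45, 2.13 and 2.09 CPM (counts scaled to the library's depth) in Deletion, against 4.81, 4.75 and 4.80 CPM in WT (log2 fold change -1.11, SE 0.10, adjusted p = 0.00115). *Emx1*, which carries the Cre, was at 47.6 to 54.6 CPM in Deletion and 55.4 to 62.3 CPM in WT (adjusted p = 0.0721). Deletion replicate 1 stood apart. Its summed choroid plexus markers were at 110.7 TPM (abundance scaled for transcript length and depth), against 3.11 and 10.6 TPM in the other Deletion libraries and 13.6 to 34.8 TPM in WT. Of the marker lists for 13 cell types, only the summed astrocyte markers did not overlap between the groups, at 569 to 627 TPM in Deletion and 466 to 555 TPM in WT. Of the 6 astrocyte markers 3 were called higher and 0 lower, beside 12.6% and 12.1% of all genes. Calls fell in other lists too. Of 6 progenitor markers 1 was higher and 3 lower, and of 5 neuronal markers 2 were higher and 0 lower. Of 5 endothelial and pericyte markers 1 was higher and 2 lower, and of 4 erythroid markers 0 were higher and 2 lower. Neuronal markers summed to 3166 to 3384 TPM in Deletion and 3165 to 3291 TPM in WT, and excitatory neuron markers to 1093 to 1164 TPM in Deletion and 1122 to 1149 TPM in WT. No marker was at 0 in all libraries. In bulk tissue, fewer cells of a type and less RNA per cell cannot be told apart.

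Splicing at site 4 decides several partners of neurexins. With the exon in place they bind cerebellins, and without it they bind LRRTMs. In *Nrxn3* the coding exon is 90 bases long, at chr12:90165921-90166010 on the plus strand (GRCm39). It is shown because the inclusion values further on are its own.
Nrxn3 90-base exon: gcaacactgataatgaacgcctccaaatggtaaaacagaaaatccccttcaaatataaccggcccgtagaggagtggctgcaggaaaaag

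Neuroligins have alternative inserts at splice sites A and B, and the site B insert of NLGN1 favours binding to beta-neurexins. In *Nlgn1* the site A exon of 60 bases is at chr3:25974342-25974401 and the site B insert of 27 bases at chr3:25494029-25494055, both on the minus strand. *Nlgn3* has an alternative 60-base exon at chrX:100346678-100346737 on the plus strand. They are shown as the stretches that distinguish the transcripts compared below.
Nlgn1 60-base exon: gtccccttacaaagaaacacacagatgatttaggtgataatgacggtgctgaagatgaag
Nlgn1 27-base insert: gtaaccgttggagcaattcaaccaaag
Nlgn3 60-base exon: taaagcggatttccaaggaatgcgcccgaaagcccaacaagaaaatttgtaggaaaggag

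*Lrrtm1* was the single member called between the genotypes, lower in *Mov10* Deletion. None of the 9 was called higher. In TMM-scaled limma-trend with 2 RUVs factors (estimates of unwanted variation) and Benjamini-Hochberg adjustment over all genes at 0.05, 0 members were called higher, against 12.6% of all genes tested (2104), and 1 lower, against 12.1% (2033). Upper-quartile scaling gave 2320 genes higher and 1491 lower. Without factors the counts of members were 0 higher, against 11.0%, and 1 lower, against 9.96%. edgeR's quasi-likelihood test and DESeq2 likewise called 0 members higher. Over all genes, edgeR called 1827 of 16745 higher without factors and 2120 with the 2 RUVs factors, and DESeq2 called 1999 of 16417 higher. At an unadjusted p under 0.05, 1 member was higher (*Nrxn3*) and 2 were lower (*Lrrtm1* and *Lrrtm3*). Groups without overlap in CPM were found for 2 of the 9, *Lrrtm1* and *Nlgn3*, against 41.6% of all genes. The median log2 fold change of the members was -0.04, beside 0.01 for all genes, and 4 members had a positive value and 5 a negative one.

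**Figure D1:**
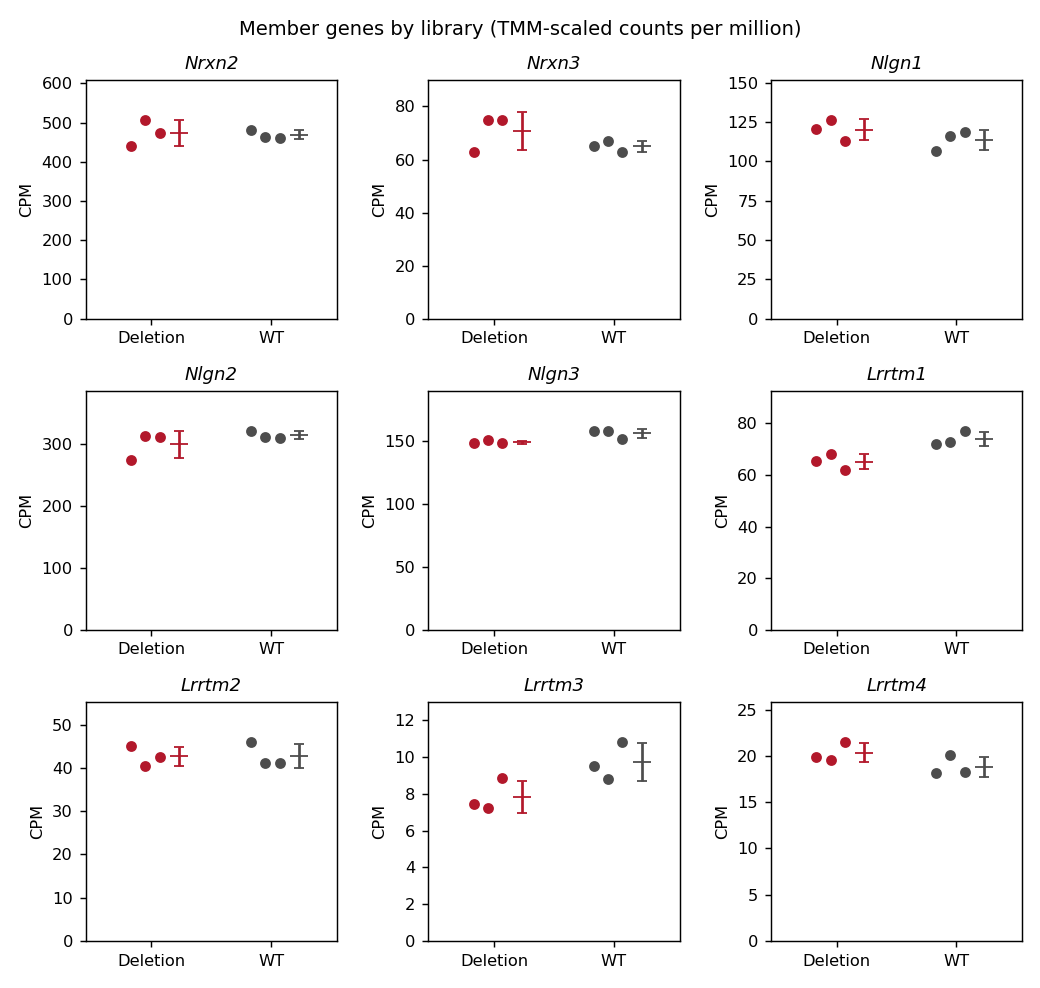
CPM (TMM-scaled, linear axes from 0) of the 9 members in the 3 *Mov10* Deletion (red) and 3 WT (grey) libraries, with the group mean and SD beside the points. *Lrrtm1* is at 62.0 to 68.0 CPM in Deletion and 72.0 to 77.2 CPM in WT, and in the other panels but *Nlgn3* the points of the groups overlap.

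Levels per transcript length set *Nrxn2* highest and *Lrrtm3* lowest. Over all 6 libraries *Nrxn2* averaged 209.5 ± 12.1 TPM, *Nlgn2* 114.6 ± 6.35 TPM, *Lrrtm1* 57.6 ± 3.37 TPM, *Nlgn1* 55.9 ± 2.73 TPM and *Nlgn3* 49.6 ± 2.96 TPM (SD, n = 6). *Nrxn3* averaged 23.7 ± 2.59 TPM, *Lrrtm2* 23.7 ± 1.53 TPM, *Lrrtm4* 19.8 ± 1.49 TPM and *Lrrtm3* 5.66 ± 0.84 TPM (SD, n = 6). *Nrxn2* and *Nlgn2* each stood clear of the next gene in every library, as did *Nlgn3* of *Nrxn3* and *Lrrtm4* of *Lrrtm3*. The ranges of *Lrrtm1*, *Nlgn1* and *Nlgn3* over the libraries overlapped, as did those of *Nrxn3*, *Lrrtm2* and *Lrrtm4*. Within libraries part of the order held. *Lrrtm1* was above *Nlgn3* in each of the 6 libraries, and *Nrxn3* and *Lrrtm2* were each above *Lrrtm4* in all 6. *Nlgn1* was above *Lrrtm1* in every Deletion library and below it in every WT library. The order of *Nlgn1* and *Nlgn3*, and that of *Nrxn3* and *Lrrtm2*, differed between libraries. The counts behind these values were between 552 and 833 per library for *Lrrtm3* and between 33865 and 41468 for *Nrxn2*.

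**Figure D2:**
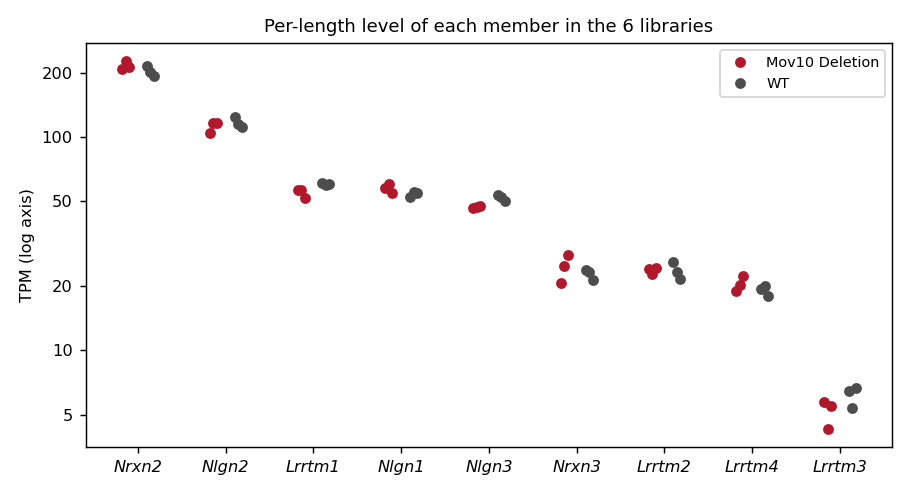
TPM of each member (logarithmic axis) in the 6 libraries, *Mov10* Deletion in red and WT in grey, ordered by the mean over all libraries. *Nrxn2* (192.5 to 227.1 TPM) and *Lrrtm3* (4.30 to 6.67 TPM) mark the ends of the order.

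Of the neurexins, neither gene was called. *Nrxn2* (chr19:6468761-6594199) was at 441, 508 and 474 CPM in Deletion, against 482, 464 and 460 CPM in WT. The Deletion libraries lay on both sides of WT (log2 fold change 0.01, SE 0.04, adjusted p = 0.837, limma). *Nrxn3* (chr12:88689646-90301709) was at 62.7, 75.0 and 75.1 CPM in Deletion, against 65.2, 66.9 and 62.7 CPM in WT. Deletion replicate 1 was level with the lowest WT library and the other Deletion libraries were above all of WT (log2 fold change 0.12, SE 0.05, adjusted p = 0.0836, limma). Without that replicate *Nrxn3* was called higher, at a log2 fold change of 0.20 and an adjusted p of 0.00413. *Nrxn2*, *Nrxn3* and *Nlgn2* were the 3 members whose lowest library was Deletion replicate 1, the library with the high choroid plexus markers, and the part of that tissue in these values was not tested.

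The balance of long and short neurexin transcripts was measured as the share of TPM carried by long transcripts (a coding sequence of at least 1000 codons) among these and the short ones that end at the same stop codon. For *Nrxn2*, with 6 long transcripts and 1 short, the long share was 44.0, 43.9 and 44.5% in Deletion, against 43.9, 46.4 and 45.7% in WT. These overlapped, with a mean difference of -1.21 percentage points (exact two-sided permutation test, p = 0.30). The short transcript Nrxn2-202 was the most abundant of the gene, at 99.0, 109.0 and 99.9 TPM in Deletion and 103.1, 91.1 and 88.9 TPM in WT. For *Nrxn3*, with 5 long transcripts and 3 short, the long share was 84.9, 84.1 and 82.9% in Deletion, against 78.6, 81.5 and 82.5% in WT. Every Deletion library was above every WT library, by 3.09 percentage points on average, and the exact p was 0.10, the smallest that 3 libraries against 3 can give. The lowest Deletion library lay just above the highest WT library. Taken as shares of estimated counts the difference was 1.77 percentage points for *Nrxn3* (exact p = 0.10) and -0.93 for *Nrxn2* (exact p = 0.40).

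Inclusion of the splice site 4 exon of *Nrxn3* was high in both genotypes, and they overlapped. These exon shares were chosen after the transcript values had been seen, and they are sums over whole-transcript estimates, not junction reads, so they are given without a test. Among 8 complete coding transcripts that hold the exon (5) or skip it (3), those with it made up 86.7, 83.2 and 85.7% of TPM in Deletion and 85.2, 85.8 and 82.7% in WT.

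Known regulators of that exon were among the genes that rose. KHDRBS1 (Sam68), KHDRBS2 (SLM1) and KHDRBS3 (SLM2) are RNA-binding proteins known to promote skipping of the splice site 4 exon. In Deletion 2 of the 3 genes rose (66.7%, beside 12.6% of all genes, median log2 fold change 0.35). This list was written with earlier results of these data known, so the share is a description only. *Khdrbs3* was at 157.9, 160.4 and 141.9 CPM in Deletion, against 122.4, 122.3 and 108.0 CPM in WT (log2 fold change 0.35, SE 0.05, adjusted p = 0.00517, limma). *Khdrbs2* was at 14.5, 17.3 and 17.0 CPM in Deletion, against 13.2, 11.9 and 13.4 CPM in WT (log2 fold change 0.36, SE 0.06, adjusted p = 0.00778, limma). Neither gene's groups overlapped. The call for *Khdrbs3* held in all 20 alternatives tried and that for *Khdrbs2* in 19. *Khdrbs1* had means of 273.2 ± 1.19 CPM in Deletion and 272.1 ± 7.52 CPM in WT (SD of 3 libraries, limma adjusted p = 0.682).

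**Figure D3:**
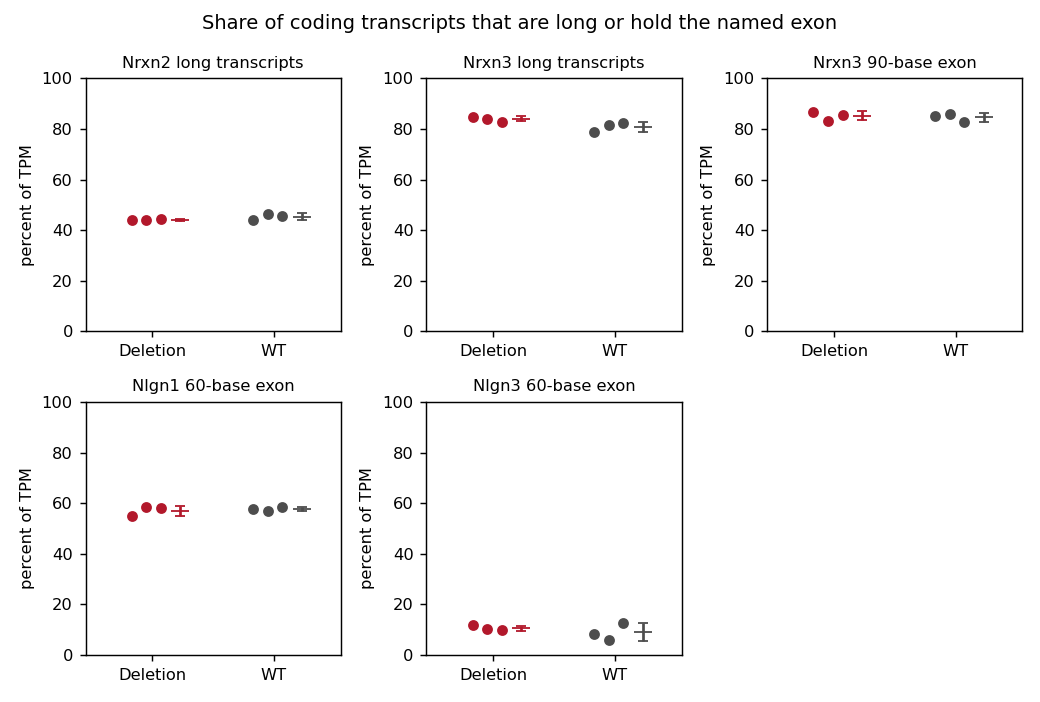
Percent of TPM (axes from 0 to 100) carried by long transcripts of *Nrxn2* and *Nrxn3* and by transcripts holding the named exon (exon shares are among complete coding transcripts that hold or skip it), for 3 *Mov10* Deletion (red) and 3 WT (grey) libraries with mean and SD. Among the 5 panels only the long share of *Nrxn3* separates the groups, at 82.9 to 84.9% in Deletion and 78.6 to 82.5% in WT.

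Of the neuroligins, none was called. *Nlgn1* (chr3:25480379-26386609) was at 120.6, 126.5 and 113.0 CPM in Deletion, against 106.6, 115.8 and 118.8 CPM in WT, with overlap (log2 fold change 0.10, SE 0.05, adjusted p = 0.174, limma). *Nlgn2* (chr11:69713948-69728613) was at 274.5, 313.8 and 311.9 CPM in Deletion, against 322.0, 311.5 and 310.8 CPM in WT. Here only Deletion replicate 1 lay clearly below WT (log2 fold change -0.07, SE 0.03, adjusted p = 0.163, limma). *Nlgn1* was called higher without Deletion replicate 3 (log2 fold change 0.16, adjusted p = 0.0179), and *Nlgn2* was called lower without Deletion replicate 2 (adjusted p = 0.0124) or replicate 3 (adjusted p = 0.0383).

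*Nlgn3* (chrX:100342750-100369570) was at 148.6, 150.9 and 148.5 CPM in Deletion, against 158.6, 158.3 and 152.3 CPM in WT. All Deletion libraries were below all WT libraries, by a small margin (log2 fold change -0.08, SE 0.03, adjusted p = 0.132, limma). It was called lower without Deletion replicate 2 (adjusted p = 0.0395) and with counts scaled for transcript length, where its log2 fold change was -0.16 (adjusted p = 0.0280). Per length the difference was also larger than in CPM, at 46.4, 47.1 and 47.5 TPM in Deletion and 53.3, 52.6 and 50.4 TPM in WT. The short fragment Nlgn3-203 (1852 bases) did not overlap, with means of 11.9 TPM in Deletion and 16.1 TPM in WT. The main transcript Nlgn3-201 (8465 bases) overlapped, at 26.1 to 28.7 TPM in Deletion and 24.6 to 32.6 TPM in WT. The other complete coding transcripts overlapped too, with slightly higher means in Deletion. The part of Nlgn3-203 in the larger difference per length was not tested. *Nlgn3* is X-linked, and the libraries differed in sex-linked RNA. The X-inactivation RNA *Xist* was at 0.18, 888 and 1.57 CPM in Deletion, against 182, 251 and 643 CPM in WT, and the Y-linked *Ddx3y* was at 22.3 to 61.2 CPM in Deletion and 24.1 to 60.4 CPM in WT. With a score of *Xist* against Y-linked genes in place of the factors (the sex score) the log2 fold change was -0.06 (adjusted p = 0.436, limma), and the part of sex in the difference was not tested further.

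In *Nlgn1* the site A exon and the site B insert occur in the same transcripts, which made up 54.8, 58.4 and 58.0% of TPM in Deletion and 57.9, 56.8 and 58.3% in WT, among 4 complete coding transcripts that hold or skip them. Among the 3 such transcripts of *Nlgn3* the 60-base exon was in 11.7, 10.4 and 9.69% of TPM in Deletion and 8.47, 5.82 and 12.7% in WT. Nlgn3-203, whose annotated coding sequence is incomplete, was left out, at 11.2 to 12.5 TPM in Deletion and 15.3 to 16.7 TPM in WT. The exon shares of the groups overlapped for both genes.

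Transcript usage, the share of each transcript within its gene, was tested with limma's diffSplice and Simes' method. It was called for 0 of the 8 members with more than 1 tested transcript, against 7.36% of all genes tested. *Nlgn2* was the member with an unadjusted p under 0.05 (0.0426, adjusted p = 0.192). The smallest p-values within the gene were those of minor transcripts. Nlgn2-201, a full-length coding form, was at 7.12, 4.52 and 5.87 TPM in Deletion, against 4.73, 3.42 and 3.12 TPM in WT. Nlgn2-203, a fragment whose annotated coding sequence is incomplete, was at 9.48, 9.75 and 10.5 TPM in Deletion, against 13.7, 12.1 and 11.97 TPM in WT. The main transcript Nlgn2-202 carried 83.2% of the gene's TPM over the 6 libraries, and its levels overlapped between the groups, at 85.6 to 97.4 TPM in Deletion and 94.0 to 101.2 TPM in WT. Usage of *Nlgn2* was called without WT replicate 1 (adjusted p = 0.0233), with a filter at 1 CPM (0.0196) and with voom weights (0.00862). Usage of *Lrrtm4*, not called with all libraries (adjusted p = 0.819), was called without Deletion replicate 1 (0.00926), replicate 2 (0.00424) or replicate 3 (0.0381).

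Among the LRRTMs, *Lrrtm1* (chr6:77218820-77235200, plus strand) fell in *Mov10* Deletion. It was at 65.5, 68.0 and 62.0 CPM in Deletion, against 72.0, 72.9 and 77.2 CPM in WT. Every Deletion library was below every WT library, and the mean was 65.2 ± 3.01 CPM in Deletion and 74.0 ± 2.74 CPM in WT (SD, 3 libraries per genotype). The log2 fold change was -0.17 (SE 0.05, adjusted p = 0.0377, limma), or 10.9% below WT. The call held in 15 of 20 alternatives, with log2 fold changes from -0.21 to -0.12 over all 20, and was lost without WT replicate 2 (adjusted p = 0.0667), with upper-quartile scaling (0.0617), with no filter (0.0803), with length-scaled counts (0.136) and with the sex score in place of the factors (0.156).

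Per length, *Lrrtm1* was at 56.5, 56.4 and 51.8 TPM in Deletion, against 60.6, 59.5 and 60.5 TPM in WT. The transcript annotated as subject to nonsense-mediated decay, Lrrtm1-201, was at 6.27, 8.45 and 9.81 TPM in Deletion, against 10.2, 10.3 and 15.0 TPM in WT, with no overlap. The main coding transcript Lrrtm1-202 was at 37.6, 35.6 and 32.4 TPM in Deletion, against 37.0, 36.4 and 31.4 TPM in WT, with full overlap. The usage test did not separate them (adjusted p = 0.426). The genes whose log2 CPM followed *Lrrtm1* most closely over the 6 libraries were *Cyria* and *Selenoh* (Pearson r = 0.998 for each), a description over libraries that share the genotype contrast. The summed markers of neurons overlapped between the groups and those of astrocytes did not, as given above, and their part in the *Lrrtm1* difference was not tested.

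*Lrrtm1* lies inside *Ctnna2*, the gene of an alpha-catenin that links cadherins to actin, on the opposite strand and with no exon in common. The host gene went the other way. *Ctnna2* was at 225.6, 256.9 and 238.1 CPM in Deletion, against 191.9, 201.6 and 217.4 CPM in WT, with no overlap (log2 fold change 0.28, SE 0.04, adjusted p = 0.00316, limma). Its call held in 19 of 20 alternatives. The hosts of *Lrrtm2* and *Lrrtm3* were not called, *Ctnna1* at a log2 fold change of -0.08 (SE 0.04, adjusted p = 0.145) and *Ctnna3* at 0.51 (SE 0.24, adjusted p = 0.160). *Lrrtm1* and *Lrrtm4* lie 7.95 and 5.17 Mb from *Emx1* on chromosome 6, where the Deletion mice carry the Cre allele. Of 151 other genes tested within 10 Mb of *Emx1*, 28 were called higher (18.5%) and 11 lower (7.28%), beside 12.6% and 12.1% of all genes. Linked sequence around that allele and the loss of *Mov10* cannot be told apart for these genes.

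*Lrrtm2* (chr18:35342056-35348120) was at 45.0, 40.5 and 42.5 CPM in Deletion, against 46.1, 41.2 and 41.1 CPM in WT, with overlap (log2 fold change -0.04, SE 0.05, adjusted p = 0.611, limma). Its exons overlap those of its host *Ctnna1* on the opposite strand. The library kit keeps strand, but the sources do not say whether the quantification used it, and sharing of reads between these genes was not tested. *Lrrtm3* (chr10:63763854-63926056, inside *Ctnna3*) was at 7.45, 7.23 and 8.84 CPM in Deletion, against 9.50, 8.82 and 10.8 CPM in WT. Only the highest Deletion library reached the lowest WT library. It had the largest fold change of the members, with a log2 fold change of -0.27 (SE 0.10), and missed the threshold (adjusted p = 0.0962, limma). It was called lower in 6 of 20 alternatives, among them without Deletion replicate 3 (adjusted p = 0.0269), without WT replicate 1 (0.0360) and without WT replicate 2 (0.0464). *Lrrtm4* (chr6:79995860-80787124) was at 19.9, 19.6 and 21.5 CPM in Deletion, against 18.1, 20.1 and 18.2 CPM in WT, with overlap (log2 fold change 0.11, SE 0.07, adjusted p = 0.252, limma). It was called in none of the 20 alternatives.

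**Figure D4:**
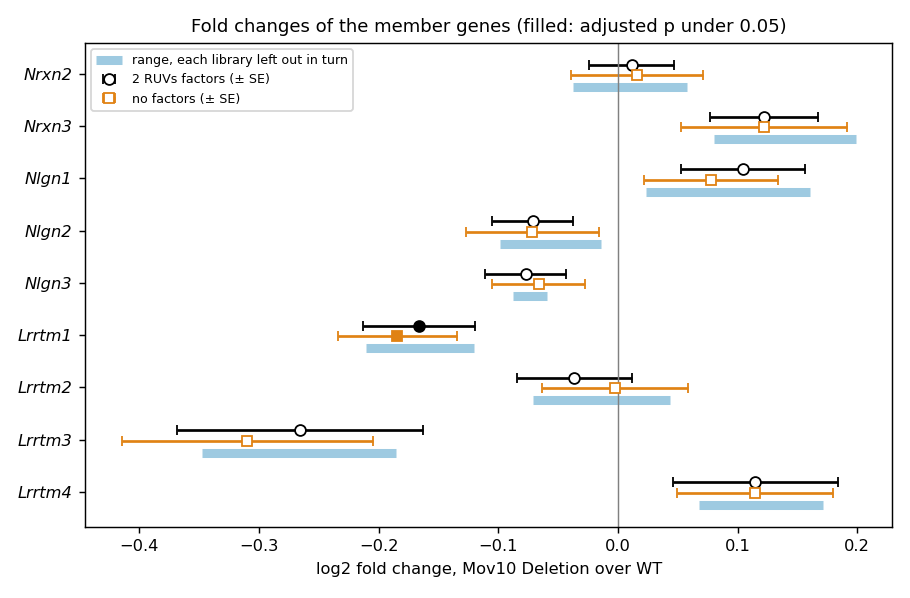
Each member's log2 fold change (Deletion over WT) with 2 RUVs factors (black circles, ± SE) and without factors (orange squares, ± SE), filled where the adjusted p was under 0.05, and the range when each library was left out in turn (blue bars). *Lrrtm1*, at -0.17, is the single filled point of either fit.

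The other proteins that neurexins bind moved in both directions. Of 21 tested genes for neurexin ligands and extracellular partners, not counting *Tafa3*, 5 rose (23.8%, beside 12.6% of all genes) and 4 fell (19.0%, beside 12.1%), with a median log2 fold change of 0.03. The secreted neurexophilins bind alpha-neurexins, and *Nxph3* was at 15.0, 16.0 and 16.9 CPM in Deletion, against 22.8, 21.4 and 25.3 CPM in WT. The groups were well apart (log2 fold change -0.50, SE 0.06, adjusted p = 0.00279, limma), and all 20 alternatives called it. *Nxph4* was lower too (log2 fold change -0.34, SE 0.07, adjusted p = 0.0126), but lost its call with no filter (adjusted p = 0.0532) and with the sex score (0.0577). *Dag1*, the gene of dystroglycan, was also lower (log2 fold change -0.14, SE 0.04, adjusted p = 0.0312). Its call was lost without WT replicate 2 (adjusted p = 0.212), with upper-quartile scaling (0.0702), with no filter (0.0782) and with the sex score. *Clstn2*, a calsyntenin, rose (log2 fold change 0.19, SE 0.03, adjusted p = 0.00773) but was not called without factors (adjusted p = 0.0685). Its call held in 16 of 20 alternatives. *Car11*, a catalytically inactive carbonic anhydrase-related protein, rose as well (log2 fold change 0.23, SE 0.05, adjusted p = 0.0136). *Tafa3*, a secreted protein gene 27.4 kb from *Mov10*, was at 0.28, 0.46 and 0.45 CPM in Deletion, against 0.06, 0.03 and 0.04 CPM in WT. These are 23 to 35 estimated counts a library in Deletion and 2 to 5 in WT. It passed the filter through the Deletion libraries alone, so its values are given without a test and it is in none of the counts of the list. Leaving out a library moved these counts to between 2 and 5 higher and between 2 and 7 lower, with 2 higher and 2 lower without WT replicate 2, 3 higher without Deletion replicate 3 or WT replicate 3 and 7 lower without Deletion replicate 2. Without factors 3 were higher, with no filter 0 were higher and 1 lower, and with the sex score 2 were higher and 1 lower.

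Of 13 genes for neuroligin inhibitors, scaffolds and complex partners, 2 rose and 2 fell (15.4% each, beside 12.6% and 12.1% of all genes). Their median log2 fold change was near that of all genes, at 0.01. *Adam10*, a sheddase that cleaves neuroligins among other proteins, was at 146.8, 153.7 and 150.1 CPM in Deletion, against 172.1, 172.8 and 177.9 CPM in WT. The groups were apart by more than their spread (log2 fold change -0.20, SE 0.03, adjusted p = 0.00634, limma), and all 20 alternatives called it. *Dlg2*, the scaffold PSD-93, rose (log2 fold change 0.22, SE 0.05, adjusted p = 0.0126), in 19 of 20 alternatives. Its call was lost with length-scaled counts (adjusted p = 0.109, limma). *Mdga1*, which blocks neuroligins from binding neurexins, was called higher (log2 fold change 0.14, SE 0.04, adjusted p = 0.0341), and *Lhfpl4*, which couples GABA-A receptors to NLGN2, was called lower (log2 fold change -0.14, SE 0.03, adjusted p = 0.0215). Neither was called without factors (adjusted p = 0.149 and 0.0598). *Mdga1* lost its call without Deletion replicate 1 (adjusted p = 0.180), WT replicate 1 (0.153) or WT replicate 2 (0.108), and *Lhfpl4* without Deletion replicate 1 (0.0540) or WT replicate 2 (0.120). The count of this list was 1 higher and 1 lower without Deletion replicate 1 or WT replicate 2, and also without factors, with no filter and with the sex score.

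Of 10 heparan sulfate proteoglycan genes, whose sugar chains neurexins, LRRTM3 and LRRTM4 engage, 0 rose and 2 fell, with a median log2 fold change of -0.05. *Gpc4*, a glypican and a known LRRTM4 partner, was at 12.9, 11.5 and 11.7 CPM in Deletion, against 13.9, 16.0 and 17.3 CPM in WT, with no overlap (log2 fold change -0.33, SE 0.06, adjusted p = 0.00744, limma). *Sdc1*, a syndecan, fell as well (log2 fold change -0.24, SE 0.05, adjusted p = 0.0173). At an unadjusted p under 0.05 in limma 1 gene of the list was higher. edgeR and DESeq2 called 0 higher, while 1 was called higher with RUVr factors, with a filter at 1 CPM, with length-scaled counts and without Deletion replicate 1 or WT replicate 1, and 2 without Deletion replicate 2. With no filter and with the sex score 0 were called lower, so that *Gpc4* and *Sdc1* lost their calls, and with length-scaled counts *Sdc1* lost its call. Of the 6 cytoplasmic partners of neurexins, *Cask*, *Apba1*, *Apba2*, *Lin7a*, *Lin7b* and *Lin7c*, 0 were called in either direction by limma with RUVs factors, edgeR or DESeq2, and 0 had an unadjusted p under 0.05 in that limma fit. Over all genes that fit called 12.6% higher and 12.1% lower. The median log2 fold change of these 6 genes was 0.01. With RUVr factors 1 was called higher, without Deletion replicate 1 2 were called higher, and without Deletion replicate 2 1 was called lower.

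Of 38 other trans-synaptic organizer genes, 9 rose (23.7%, beside 12.6% of all genes) and 5 fell (13.2%, beside 12.1%), with a median log2 fold change of 0.03. *Tenm2*, a teneurin that binds latrophilins, was at 305.5, 337.8 and 374.6 CPM in Deletion, against 232.0, 230.7 and 222.9 CPM in WT. All Deletion libraries were far above WT (log2 fold change 0.56, SE 0.06, adjusted p = 0.00144, limma), in all 20 alternatives. *Il1rap*, a ligand of the receptor PTPRD, and *Ntng2*, a netrin-G, also rose, at log2 fold changes of 0.31 (SE 0.06, adjusted p = 0.0128) and 0.19 (SE 0.04, adjusted p = 0.0116). The call for *Ntng2* held in 14 of 20 alternatives. Among those that lost it were limma without factors (adjusted p = 0.101) and DESeq2 (0.0524). *Slitrk1*, a postsynaptic partner of receptor phosphatases, was at 48.1, 56.4 and 51.3 CPM in Deletion, against 63.4, 64.0 and 62.4 CPM in WT. It was lower in every Deletion library (log2 fold change -0.29, SE 0.04, adjusted p = 0.00459, limma). *Lrrc4b*, the netrin-G family ligand NGL-3, fell (log2 fold change -0.21, SE 0.03, adjusted p = 0.00575), as did *Lrfn4*, a SALM protein (log2 fold change -0.14, SE 0.04, adjusted p = 0.0279), which lost its call without factors (adjusted p = 0.0533) and without Deletion replicate 1 (0.0536) or WT replicate 2 (0.0790). Without WT replicate 2 the list had 5 genes higher and 2 lower, without factors 5 and 3, with no filter 1 and 2, and with the sex score 1 and 0. The calls for *Slitrk1*, *Lrrc4b* and *Il1rap* were lost with the sex score (adjusted p = 0.0553, 0.0717 and 0.0797), and that for *Il1rap* with no filter as well.

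**Figure D5:**
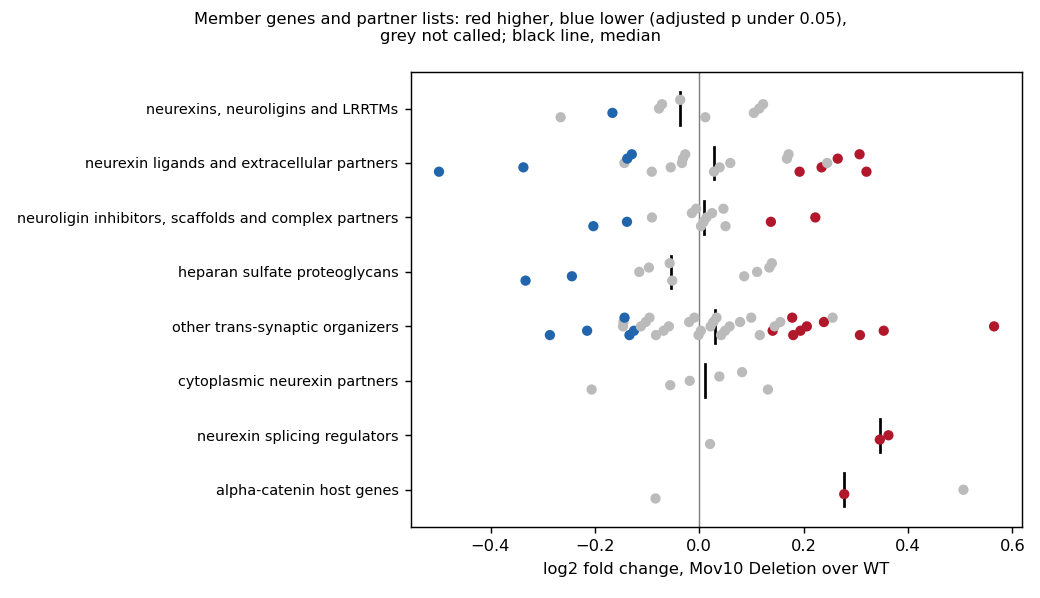
Log2 fold changes (Deletion over WT) of the 9 members and the tested genes of each partner list, red where called higher, blue where called lower and grey where not called, with the list's median as a black line. *Tafa3*, whose WT value rests on 2 to 5 counts a library, is left out of the points and of its list's median.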

How the data were processed

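The deposited files held, per transcript, estimated counts and TPM that the authors made with Salmon 1.4.0 on GRCm39. The library kit was stranded. The transcript annotation release and the strand setting of Salmon are not given in the sources used here. Transcripts were matched by identifier to GENCODE M39 (137570 of 139225, the rest holding 0.589 to 0.600% of counts) and summed per gene. Transcript lengths equalled the annotation's for 43 of 66 member transcripts, so exon content is that of M39. *Car10* and *Car11* stand for CA10 and CA11. *C1ql4* and *Tafa4* failed the filter. A further exon is not reported here.

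Genes with 0.25 CPM in at least 3 libraries were TMM-scaled, with no rounding for limma. Counts were rounded for edgeR 4.0.16 and DESeq2 1.42.0, which were alternatives. The main test was limma 3.58.1 trend (R 4.3.3, log2 CPM, prior count 2) with 2 RUVs factors, all genes as controls, leaving 2 residual degrees of freedom. The function behind the factors was not named by the study, and RUVs was taken. The code was tested on simulated data. Leave-outs, other scalings, filters and factors were the alternatives. Members and lists were chosen with earlier results of these data known. Named partner genes were up to 3 of each list's called genes per direction with the smallest p.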

Additional observations from a re-analysis of the deposited data

How the results depend on the processing

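Of 180 fold changes of the members under an alternative, 178 kept their direction. The 2 that turned were *Nrxn2*, whose log2 fold change was between -0.038 (without *Mov10* Deletion replicate 2) and 0.057 over the libraries left out, and *Lrrtm2*, between -0.071 and 0.044 (without WT replicate 1). The count of members called lower, 1 with all libraries, was 2 with RUVr factors and with DESeq2, which called 2010 of 16417 genes lower. It was 0 with upper-quartile scaling, with no filter and with the sex score, an alternative chosen after seeing the data. Leaving out each library in turn gave 0 to 1 members called higher and 1 to 3 called lower, and 0 to 1 members with transcript usage called. Over all genes these fits called 1656 to 2809 higher and 1147 to 2988 lower, of 16573 to 16647 tested. Usage was called for 440 to 884 genes, of 10117 to 10192 tested. The count of members with usage called was 0 with all libraries and 1 with a filter at 1 CPM and with voom weights, which were also added after seeing the data. Over all genes usage was called for 650 of 7845 with that filter and for 930 of 10338 with voom weights. Same-numbered replicates showed little common deviation over all genes (r = 0.01, -0.07 and 0.04). The main fit took the libraries as unpaired, and these values cannot exclude a weak pairing. With a replicate block 2 members were called lower and 0 higher, beside 1568 lower and 1857 higher of all 16745 genes. Usage of 0 members was called in that fit, beside 704 of 10338 genes.

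Over all genes, 445 were called higher and 480 lower with no filter (29469 tested), 767 and 597 with the sex score, and 1656 and 1147 without WT replicate 2, beside 2104 and 2033. Other settings gave more calls, among them 2809 and 2988 without Deletion replicate 2 and 2653 and 2697 with RUVr factors. Usage was called for 440 genes without WT replicate 2 and for 884 without WT replicate 3, beside 761. Of the 20 partner genes named with a test, 11 were not called with the sex score, 13 with no filter and 5 without factors. The cause was not tested. *Lrrtm3* and the minor transcripts rest on few counts, and 3 pools per genotype leave an exact test no p below 0.10.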
